A study of Mus musculus with 8 samples.

Results

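The cytosolic ribosome is built from a small and a large subunit, named 40S and 60S, and each subunit joins ribosomal RNA with its own set of proteins. The 76 genes described here are the protein-coding mouse genes that encode these proteins and are recognised by their symbols, 46 of the 60S subunit (Rpl genes and the stalk genes Rplp0, Rplp1 and Rplp2) and 30 of the 40S subunit (Rps genes and Rpsa). Pseudogenes and paralogs whose symbols end in l were left out, and the rule reads the symbols alone. All 76 were found among the 47729 genes of the neural stem cell table and the 40562 genes of the astrocyte table. Rps3a1, Fau and Rack1, ribosomal proteins that the symbols miss, are described separately.

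The study sequenced RNA from mice on a C57BL/6 background that carry a point mutation in dentin matrix protein 1 (Dmp1), which changes serine 89, the glycosylation site of the N-terminal fragment, to glycine (S89G-DMP1), and from wild type (WT) mice. The mutation was knocked in by homologous recombination in C57BL/6J embryonic stem cells and is present in every tissue. Neural stem cells (NSCs) of the sub-ventricular zone, grown as floating neurospheres, were sequenced in 3 WT and 3 S89G-DMP1 libraries, and astrocytes of the cortex, grown in medium with serum, in 1 library of each genotype. All 8 samples are labelled with an age of 10 weeks, although the methods give a somewhat higher age for the mice behind the astrocyte cultures, and no other treatment is named. Nothing says whether the 3 libraries of a genotype came from separate animals or cultures, so the p-values measure only the spread between these libraries, which may be technical.

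Ribosomal protein messengers are among the most abundant in a growing cell. They share a start made of pyrimidines, the 5′ terminal oligopyrimidine (TOP) motif, through which their translation follows the mTOR pathway, and because most of the proteins enter each ribosome in a single copy, the genes are known for moving together. Neural stem cells have a high demand for protein synthesis when they leave quiescence, and ribosomal protein genes are therefore often read as a sign of growth. RNA counts give messenger levels and not the amount of protein or of ribosomes.

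The depth was 2354615 to 2588130 counted reads per NSC library, and 14008670 and 13016924 in the WT and S89G-DMP1 astrocyte libraries. In the NSCs, markers of neural stem cells were present, with Sox2 at a mean of 321 CPM (read counts relative to the library total, scaled by TMM so that most genes are level between libraries) in WT and 345 in S89G-DMP1, while the summed microglia markers were at 0 to 0.428 CPM. The 10 fibroblast and mural markers summed to 181 to 192 CPM in WT and 106 to 114 CPM in S89G-DMP1 NSCs, mostly through Thy1, which neurons also express and which was called lower by edgeR and DESeq2 (mean of 151 CPM in WT and 69.1 in S89G-DMP1), while Dcn, Lum and Col1a2 were at 0 in every NSC library. Dmp1 itself, whose point mutation gene counts do not show, had 16 to 21 counts in the WT and 3 to 6 in the S89G-DMP1 NSC libraries, and 2 and 119 counts in the WT and S89G-DMP1 astrocyte libraries. Of 13 tested neural stem cell markers, 4 were called higher in S89G-DMP1 NSCs and 0 lower by edgeR, against 7.08% and 8.76% of all genes tested. Of 10 tested astrocyte markers, 5 were called higher in S89G-DMP1 NSCs and none lower by edgeR, against the same shares of all genes. The lowest had a log2 fold change of -0.0067. The list's summed level was 2068 to 2122 CPM in WT against 2864 to 2956 CPM in S89G-DMP1. The astrocyte libraries differed more. The library labelled WT astrocyte held 8 counts of Slc1a3, 8 of Aqp4, 47 of Aldh1l1 and 90 of Gfap, against 3877, 4051, 1792 and 901 in S89G-DMP1, while S100b (64 and 30 counts) went the other way. Of the 12 astrocyte markers, 8 were higher in S89G-DMP1 by 2-fold or more and 2 were lower by as much, against 17.3% and 12.8% of all genes. Their sum was 507 CPM in the WT and 1596 CPM in the S89G-DMP1 library. The summed fibroblast and mural markers were at 38540.1 CPM in the WT and 17395 CPM in the S89G-DMP1 astrocyte library, and the summed microglia markers at 555 and 857 CPM. Of the 13 neural stem cell markers with enough counts in these libraries, 9 were at least 2-fold higher in S89G-DMP1 and 0 lower, with a median log2 ratio of 4.38. In bulk RNA, fewer cells of a type and less RNA per cell cannot be told apart, and the part of these markers in the results on ribosomal protein genes was not tested.

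The pyrimidine-rich start is visible in the reference sequence. Of the 76 genes, 56 have a promoter entry in RefSeq (GRCm38.p6), from which the 15 bases before and the 15 bases from the annotated start on were read. A run of at least 8 consecutive C or T on the gene's strand was found in 23 of the 56 windows (41.1%), against 11.9% of the windows of 27025 genes, and the median longest run was 6.5 bases against 4. Annotated starts can lie some bases from the main start of transcription, so a window without a run says only that these letters are not in it. The windows below are chosen examples, with the longest pyrimidine run in capitals. They belong to genes called higher in NSCs (Rpl31, Rpl4, Rpl14 and Rpl41), to genes with small differences (Rpl19 and Rpl11) and to Rps6 and Rpl38. The runs of Rpl31 and Rpl4 end before the annotated start.
Rpl31 (chr1:39367836-39367865, + strand): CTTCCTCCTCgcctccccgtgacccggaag
Rpl4 (chr9:64173372-64173401, + strand): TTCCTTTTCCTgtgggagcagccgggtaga
Rpl14 (chr9:120571502-120571531, + strand): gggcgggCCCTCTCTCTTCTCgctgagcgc
Rps6 (chr4:86857353-86857382, - strand): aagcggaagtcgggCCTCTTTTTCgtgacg
Rpl38 (chr11:114668565-114668594, + strand): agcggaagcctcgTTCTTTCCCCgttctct
Rpl41 (chr10:128549154-128549183, - strand): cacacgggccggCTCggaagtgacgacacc
Rpl19 (chr11:98026695-98026724, + strand): tgaccaaacgCCCTCactgcgcatgtgcgc
Rpl11 (chr4:136053379-136053408, - strand): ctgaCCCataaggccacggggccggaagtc
Long runs occurred among genes that were called higher and among genes that were not. Of genes not shown, Rpl27a had a run of 19 at a log2 fold change of 0.05, while Rps2, Rps25 and Rpl22, all called higher, had runs of 6, 7 and 4. The median log2 fold change in NSCs was 0.21 over the 22 tested genes with a run of at least 8 and 0.18 over the 33 without, with 11 and 14 genes called higher.

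The first question was whether the messengers of the ribosome differed between S89G-DMP1 and WT NSCs. They were higher in S89G-DMP1 by a small amount that most members shared. Of the 75 genes with enough reads to be tested, 37 (49.3%) were called higher at an adjusted p of 0.05 in the quasi-likelihood test of edgeR (Benjamini-Hochberg adjusted over all 11194 genes tested), where 7.08% of all genes were called higher. None was called lower, against 8.76% of all genes, and none was lower even at an unadjusted p under 0.05 by edgeR or at an adjusted p of 0.05 by DESeq2, which called 4.49% of all genes lower. The median log2 fold change was 0.18, or 1.13-fold, against 0.00256 over all genes tested, and 72 of the 75 values were above 0. All values lay between 0.952-fold and 1.35-fold, and no called gene differed by more than 1.34-fold.

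**Figure D1:**
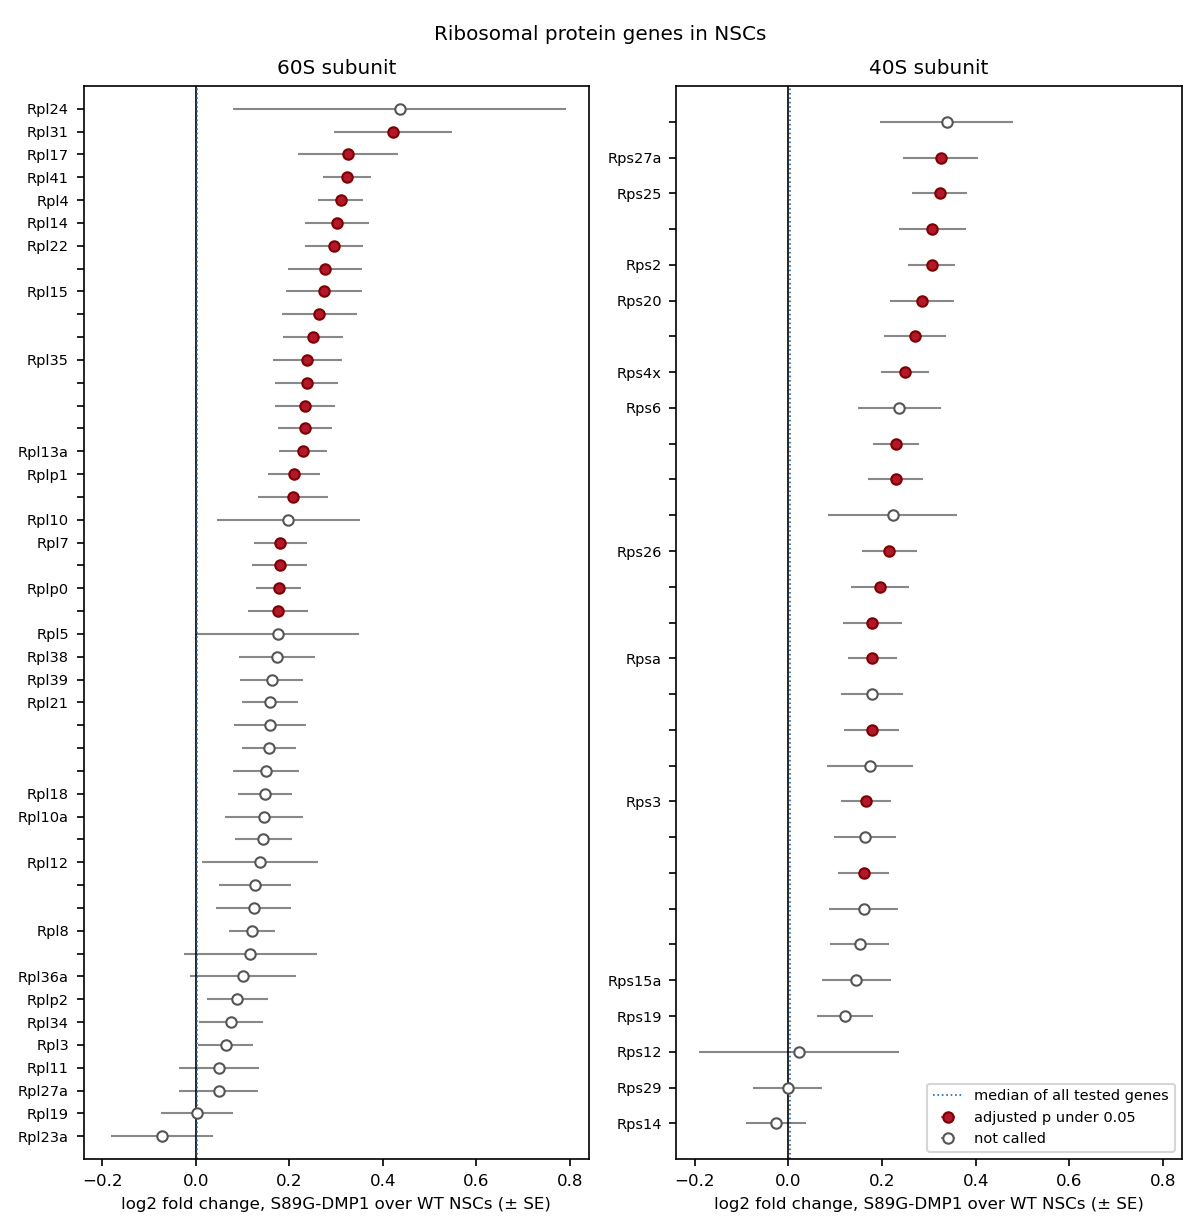
Log2 fold change of S89G-DMP1 over WT NSCs (x axis, with its standard error as a bar) for the 75 tested ribosomal protein genes, 46 of the 60S and 29 of the 40S subunit, with 3 libraries per genotype. Filled points passed an adjusted p of 0.05, and 72 of the 75 points lie right of the solid line at 0, while the dotted line marks the median of all tested genes. Genes named in the text are labelled.

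The count of called genes depended on 1 library of each genotype. Without WT replicate 1, 20 genes were called higher, against 6.44% of all genes, and the median log2 fold change was 0.15. Without S89G-DMP1 replicate 3, 19 were called, against 5.02% of all genes, and the median was again 0.15. Without any 1 of the other libraries, 25 to 40 genes were called, against 5.23% to 5.65% of all genes. DESeq2 called 19 of the 75 genes (25.3%) higher, all of them among the 37, against 3.11% of all genes. With limma on log2(TPM + 1) of the deposited TPM values no gene passed an adjusted p of 0.05, while 27 genes (against 6.07% of all genes) were higher and 0 (against 10.1%) lower at an unadjusted p under 0.05.

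As a share of all counted reads, the 76 genes took 1.94%, 2.10% and 2.12% in the 3 WT libraries and 2.23%, 2.36% and 2.47% in the 3 S89G-DMP1 libraries. Every S89G-DMP1 library stood above every WT library, and the gap between the nearest libraries was smaller than the range within either genotype. The mean share was 2.05% ± 0.0996 (SD, n = 3) in WT and 2.35% ± 0.119 (SD, n = 3) in S89G-DMP1, 14.5% higher. Both subunits contributed, with mean shares of 1.18% in WT and 1.35% in S89G-DMP1 for the 60S genes and of 0.868% and 0.997% for the 40S genes. The ratio of 60S to 40S reads was 1.35 to 1.38 in WT and 1.35 to 1.36 in S89G-DMP1, so the groups overlapped. In the deposited TPM values, which allow for transcript length, the 76 genes made up 8.05% to 8.56% of the total in WT and 9.11% to 9.79% in S89G-DMP1.

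**Figure D2:**
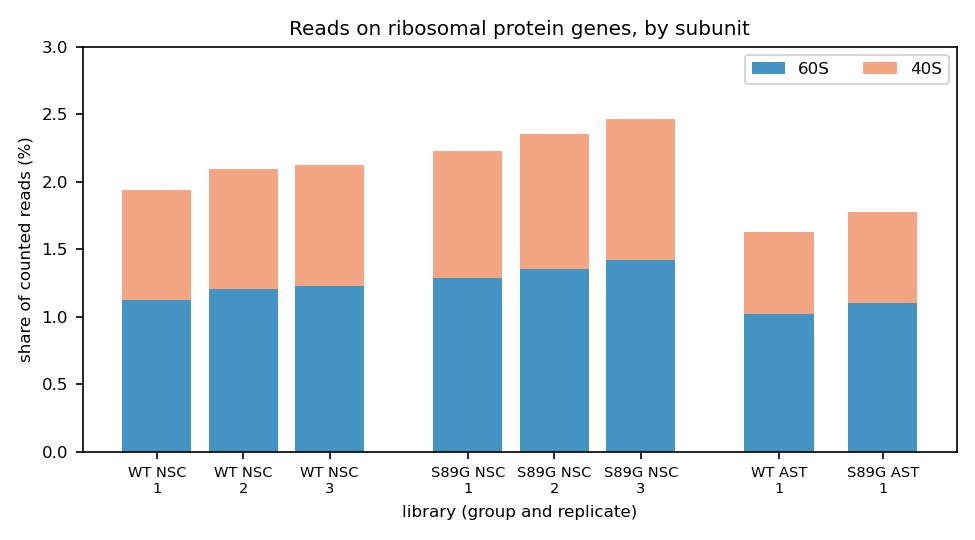
Share of all counted reads (%) that fell on ribosomal protein genes in each of the 8 libraries, with 60S genes in blue and 40S genes in orange. The 3 S89G-DMP1 NSC libraries reached 2.23% to 2.47%, above the 3 WT NSC libraries at 1.94% to 2.12%, and the single astrocyte libraries 1.63% and 1.78%.

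The members also moved together between libraries of 1 genotype. The median of the members' log2 deviations from their own means was -0.17, -0.04 and -0.05 in the 3 WT libraries and 0.03, 0.10 and 0.18 in the 3 S89G-DMP1 libraries. Within a genotype, the chi-square per degree of freedom of the counts was 4.82 in WT and 3.15 in S89G-DMP1 over the members, against 1.41 and 1.23 over all genes. This ratio grows with the counts, and the members are well counted. Members that shift together in a library do not give 75 separate observations.

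The genes with the smallest p-values were abundant ones. Rpl4, which lines the tunnel through which the new chain leaves, stood at 901, 952 and 961 CPM in WT and at 1125, 1166 and 1197 CPM in S89G-DMP1. The 2 groups did not overlap, and Rpl4 was 1.24-fold higher (log2 0.31 ± 0.05 SE, adjusted p = 8.53e-07, edgeR's quasi-likelihood test). Rpl41, the smallest ribosomal protein, stood at 585, 574 and 605 CPM in WT and at 706, 721 and 781 CPM in S89G-DMP1, with no overlap (log2 0.32 ± 0.05 SE, adjusted p = 1.49e-06, edgeR). Rps2, which sits where the messenger enters the 40S subunit, stood at 752, 789 and 849 CPM in WT and 924, 1009 and 1022 CPM in S89G-DMP1 (log2 0.31 ± 0.05 SE, adjusted p = 4.1e-06, edgeR). Its groups did not overlap either. Rps25, which certain viral messengers need to start translation, gave 279, 291 and 305 CPM against 342, 365 and 387 CPM, and the X-linked Rps4x gave 634, 609 and 633 CPM against 714, 734 and 782 CPM. Both were higher in each S89G-DMP1 library, with adjusted p of 2.55e-05 for Rps25 and 0.000163 for Rps4x (edgeR). All 5 stayed called whichever single library was left out and were also called by DESeq2.

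Rpl31, Rps27a and Rpl17, the called genes with the largest fold changes, rested on fewer reads than the genes with the smallest p-values. Rpl41 and Rps25 followed close behind them in fold change. Rpl31, at the exit of the tunnel, had 31.2, 41.2 and 31.2 CPM in WT and 42.5, 46.6 and 49.7 CPM in S89G-DMP1. Its groups were separated by a narrow gap, the log2 fold change was 0.42 ± 0.13 SE (adjusted p = 0.013, edgeR), and it was called in 3 of the 6 fits that left out a library. Rpl17, its neighbour at the tunnel exit, was at 49.3, 56.3 and 47.1 CPM in WT and 70.8, 62.9 and 58.2 CPM in S89G-DMP1 (log2 0.32 ± 0.11 SE, adjusted p = 0.0264, edgeR), and it was called in 2 of those 6 fits. DESeq2 called neither Rpl31 nor Rpl17. Rps27a, which is made as a fusion with ubiquitin, was at 95.7, 100.2 and 101 CPM in WT and 109.9, 132 and 130.4 CPM in S89G-DMP1 (log2 0.33 ± 0.08 SE, adjusted p = 0.00216, edgeR). Rpl14 (log2 0.30) and Rpl22 (log2 0.30) were also among the 10 largest, and each was higher in all S89G-DMP1 libraries by CPM and called in all 6 such fits. In the deposited TPM values the groups of Rpl31 and Rpl22 overlapped, and those of Rpl17, Rps27a and Rpl14 did not.

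**Figure D3:**
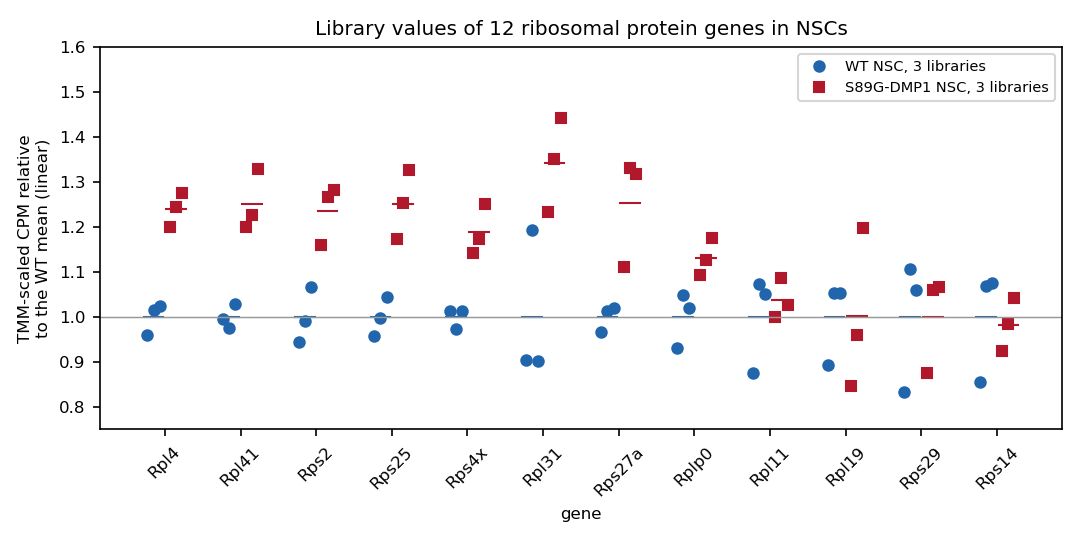
TMM-scaled CPM of 12 ribosomal protein genes in each NSC library, divided by the gene's WT mean (y axis, linear), with WT libraries as blue circles, S89G-DMP1 libraries as red squares and a short line at each group's mean. The groups do not overlap for the first 8 genes from Rpl4 to Rplp0, and they overlap for Rpl11, Rpl19, Rps29 and Rps14.

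Across the family, every S89G-DMP1 library stood above every WT library for 33 of the 75 genes (44%), against 14.8% of all genes tested, and below for 0. Of the 37 called genes, 25 had groups that did not overlap, and 15 were called in all 6 fits that left out a library. In the deposited TPM values the groups did not overlap for 40 of the 75 genes (53.3%), against 9.17% of all genes, with S89G-DMP1 above WT. By subunit, 21 of 46 tested 60S genes (45.7%) and 16 of 29 tested 40S genes (55.2%) were called, with median log2 fold changes of 0.18 in both. Called genes were better counted, with a median WT mean of 288 CPM against 136 CPM for the 38 genes not called.

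The stalk of the 60S subunit, which draws translation factors to the ribosome, consists of Rplp0 and of Rplp1 and Rplp2. Rplp0 was at 1134, 1278 and 1244 CPM in WT and 1331, 1373 and 1432 CPM in S89G-DMP1, without overlap (log2 0.18 ± 0.05 SE, adjusted p = 0.00565, edgeR). Rplp1 was also called (log2 0.21 ± 0.06 SE, adjusted p = 0.00387, edgeR), although its highest WT library, at 744 CPM, lay above its lowest S89G-DMP1 library, at 726 CPM. Rplp2 was not called, at 228, 295 and 269 CPM against 280.1, 278 and 286 CPM (log2 0.09 ± 0.06 SE, adjusted p = 0.395, edgeR). A difference between Rplp2 and the other stalk genes was not tested.

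Several members have roles outside the ribosome or in its control. Rpsa, a 40S protein also known as a precursor of a laminin receptor, was at 774, 907 and 844 CPM in WT and 869, 988 and 1005 CPM in S89G-DMP1, with overlapping groups (log2 0.18 ± 0.05 SE, adjusted p = 0.012, edgeR). Rps6, the substrate of the S6 kinases below mTOR, was at 76.7, 90.1 and 77.9 CPM against 93.1, 90.3 and 105 CPM and missed the threshold (log2 0.24 ± 0.09 SE, adjusted p = 0.0574, edgeR). Its groups did not overlap, by a margin of less than 1% of either value. Rps3, a 40S protein with a known part in DNA repair, was called (log2 0.17 ± 0.05 SE, adjusted p = 0.0246, edgeR), and so was Rpl13a, known for the control of inflammatory messengers (log2 0.23 ± 0.05 SE, adjusted p = 0.000605, edgeR). Rpl3, at the catalytic centre of the 60S subunit, had a log2 fold change of 0.06 ± 0.06 SE and was not called, whereas Rpl7 was called at a log2 fold change of 0.18 ± 0.06 SE (adjusted p = 0.0173, edgeR). Rps19, the gene most often mutated in Diamond-Blackfan anaemia, was not called (log2 0.12 ± 0.06 SE, adjusted p = 0.176, edgeR), nor was Rpl38, known from patterning of the mouse skeleton (log2 0.17 ± 0.08 SE, adjusted p = 0.143, edgeR). Of the genes called here, DESeq2 called Rpl13a but not Rpsa, Rps3 or Rpl7, and with 1 library left out Rpsa was called in 3 of 6 fits and Rps3 and Rpl7 in 2 of 6 each.

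Rpl5 and Rpl11 travel to the ribosome together with the smallest ribosomal RNA and can bind Mdm2, the inhibitor of p53. Rpl11 was at 81.8, 100.2 and 98.2 CPM in WT and 93.5, 101 and 95.9 CPM in S89G-DMP1, with overlapping groups (log2 0.05 ± 0.09 SE, adjusted p = 0.765, edgeR). Rpl5 had only 42 to 64 counts in a library and a log2 fold change of 0.18 ± 0.17 SE (adjusted p = 0.567, edgeR). Of the 17 tested genes on a list of p53 targets, 0 were called higher and 2 lower by edgeR, near the 8.76% of all genes called lower, and the median log2 fold change was -0.06.

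Of the 4 X-linked members, Rps4x was called, as given above. Rpl10, among the last proteins to join the 60S subunit, was at 20.6 to 24.9 CPM in WT and 23.2 to 29.1 CPM in S89G-DMP1, Rpl39 of the exit tunnel at 165 to 185 against 181 to 204 CPM, and Rpl36a at 41.9 to 59.0 against 51.0 to 60.8 CPM. None of these 3 was called, and the groups overlapped for each.

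At the other end, 5 members had log2 fold changes close to 0. Rpl23a, beside the tunnel exit, was at 54.8, 66.8 and 69.1 CPM in WT and 49.7, 59.5 and 72.2 CPM in S89G-DMP1 (log2 -0.07 ± 0.11 SE). Rps14, on the platform of the 40S subunit, was at 277, 345 and 348 CPM in WT and 299, 318 and 337 CPM in S89G-DMP1 (log2 -0.03 ± 0.06 SE). The groups overlapped in both genes, as they did for Rps29 (log2 -0.0014 ± 0.07 SE), Rpl19 (log2 0.0032 ± 0.08 SE) and Rps12 (log2 0.02 ± 0.21 SE). Rps12 had 24 and 29 counts in S89G-DMP1 replicates 1 and 2 and 63 in replicate 3, and without that replicate its log2 fold change was -0.49. None of the 5 was called.

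Whether the composition of the family changed was examined by scaling each library to its own summed ribosomal protein reads, which sets the family as a whole to about 0 by construction. On that scale 54 of the 75 genes lay within 0.1 of 0 on the log2 scale and the rest between -0.27 and 0.24. Only Rps14 was called, lower than the family by 0.22 on the log2 scale (adjusted p = 0.0405, edgeR). On this scale 26.2% of all genes were called in either direction. That share cannot be set against the members, because the scaling centres the members near 0 and shifts the other genes. At an unadjusted p under 0.05 there were 4 genes, all lower than the family, namely Rps14, Rpl23a, Rps29 and Rpl19.

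Per length, the most abundant members over the 6 NSC libraries were Rpl41, Rplp0, Rps2, Rpl8 and Rps26, with mean TPM of 2734 ± 38.6, 2537 ± 157, 2397 ± 126, 2354 ± 167 and 2120 ± 171 in WT (SD, n = 3). Rpl41 stood apart from Rplp0, and Rpl8 from Rps26, by more than either SD. The other neighbours in this order were closer than the larger SD of the pair. The least abundant were Rps15a, Rps20, Rpl15, Rpl5 and Rpl22, between 138 and 426 TPM in WT. The median over all 76 members was 1022 TPM, against 36.1 TPM over all genes tested.

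For some members the counts and the deposited TPM values disagree. Rpl24 had 5 to 18 counts in a library but 882 to 1037 TPM, and Rps27 had 5 to 12 counts, too few to be tested, but 622 to 859 TPM. Counts per base divided by TPM, set to 1 at the family's median, gave 0.0314 for Rpl24, 0.0452 for Rps27 and 0.088 for Rpl5, the 3 members below 0.1, and 7.43 for Rplp1 at the upper end. Rpl24 has a copy with an identical transcript stretch, Gm28037, Rps27 has Rps27rt and Rpl5 has Gm15500. In each NSC library, 0 reads were assigned to Gm28037, 0 to 4 to Rps27rt and 46 to 72 to Gm15500. In all, 75 of the 76 genes had at least 1 gene elsewhere whose transcript matched at 95% identity or more over at least 100 bases and 50% of the shorter transcript, with a median of 6 and a maximum of 61 for Rpl21. Over the 6 NSC libraries, the copies of Rpl24, Rps27, Rpl5 and Rps12 held reads equal to 37.8%, 26.2%, 122% and 25.6% of the genes' own. The fold changes of Rpl24, Rpl5 and Rps12 are therefore uncertain, and Rps27 has none in NSCs. Rpl24, with the largest fold change of all members (log2 0.44 ± 0.36 SE), was not called. Over the whole family the copies held reads equal to 1.28% of the members' own, and with them added 38 genes were called higher in place of 37.

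Ribosomal proteins that the symbols miss were measured as well. Rps3a1 of the 40S subunit was called higher (log2 0.31 ± 0.05 SE, adjusted p = 9.02e-06, edgeR), as was Rack1, the scaffold on the 40S head (log2 0.18 ± 0.05 SE, adjusted p = 0.0155, edgeR), the latter not by DESeq2. Fau, a fusion with a ubiquitin-like protein, had 30 to 42 counts in WT and 29 to 36 in S89G-DMP1 (log2 -0.14 ± 0.20 SE) and was not called.

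Among the paralogs, Rpl22l1 had 123, 99 and 132 counts in WT and 158, 167 and 181 in S89G-DMP1, without overlap (log2 0.56 ± 0.11 SE, adjusted p = 6.85e-05, edgeR). Rpl22, known to repress Rpl22l1, was itself called higher, at 243, 227 and 250 CPM against 273, 306 and 304 CPM (log2 0.30 ± 0.06 SE, adjusted p = 0.000234, edgeR). Rpl7l1 (log2 0.33 ± 0.07 SE, adjusted p = 0.000456, edgeR) and the p53-responsive Rps27l (log2 0.22 ± 0.07 SE, adjusted p = 0.0197, edgeR) were called higher as well, Rps27l not by DESeq2, and Rpl36al was not called (log2 0.04 ± 0.08 SE). Rps4l, annotated as a transcribed processed pseudogene, went the other way, with 28, 28 and 31 counts in WT and 7, 6 and 4 in S89G-DMP1 (log2 -2.28 ± 0.32 SE, adjusted p = 9.91e-08, edgeR). Rpl10l and Rpl39l had no NSC counts, and Rpl3l and Rps27rt at most 4 in a library.

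Other parts of the translation machinery were read from lists that share some genes with each other. Of 26 TOP messengers other than the 76 genes, which include Rps3a1 and Rack1, 13 were called higher and 0 lower by edgeR, with a median log2 fold change of 0.18 and 8 called higher by DESeq2, among them Nap1l1 (log2 0.45), Pabpc1, the poly(A)-binding protein (log2 0.32), and the nucleolar chaperone Npm1 (log2 0.33). Of 49 initiation and elongation factors, 20 were called higher and 1 lower by edgeR (median 0.13), and 10 and 1 by DESeq2. Etf1, which ends translation, and Abce1, which splits ribosomes, were among those higher (log2 0.34 and 0.27), and Eef1a2, the elongation factor of mature neurons and muscle, was the one lower, at 19, 23 and 12 counts in WT and 3, 3 and 4 in S89G-DMP1. Of 95 tested ribosome biogenesis factors, 18 were called higher and 0 lower by edgeR (median 0.15), led by Ncl and Ddx21 (log2 0.33 and 0.41). DESeq2 called 7 of them. The list of RNA polymerase I and its factors had 2 of 15 called higher by edgeR, Polr1a and Polr1b, and 0 by DESeq2, where 7.08% and 3.11% of all genes were called. The hosts of small nucleolar RNAs had 4 of 11 called higher by edgeR and 2 by DESeq2, with Snhg1 at a log2 fold change of 0.56 and Gas5 at 0.36. Of 13 chaperones and importins of ribosomal proteins, 4 were called higher by edgeR, Ipo5 and Ipo7 among them, and 1 lower, and 3 and 0 by DESeq2.

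The mitochondrial ribosomal proteins, which serve the separate ribosome of that organelle, had a median log2 fold change of 0.12 over 76 tested genes, with 57 values above 0. Of these, 1 was called higher by edgeR, Mrpl42 (log2 0.32 ± 0.11 SE, adjusted p = 0.0336), against 7.08% of all genes, and 0 by DESeq2. Their levels were lower than those of the cytosolic genes, with a summed level of 2790 to 3112 CPM over the 6 libraries against 19491 to 24838 CPM, and the difference between the 2 lists was not tested. Of 23 genes of the mTOR pathway and translation control, 3 were called higher and 3 lower by edgeR (median -0.09), against 7.08% and 8.76% of all genes, and 0 in either direction by DESeq2, with Eif4ebp1, the inhibitor of cap-dependent initiation that mTOR phosphorylates, at 142, 91 and 116 counts in WT and 126, 140 and 182 in S89G-DMP1 (log2 0.41 ± 0.12 SE, adjusted p = 0.014, edgeR), and Rps6ka2 lower (log2 -0.53). Of 10 Myc family genes, 0 were called higher and 2 lower by edgeR (8.76% of all genes were called lower), namely Mycn, with 18, 31 and 25 counts in WT and 9, 4 and 10 in S89G-DMP1, and Mxd4 (log2 -0.48). DESeq2 also called 0 higher and 2 lower.

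**Figure D4:**
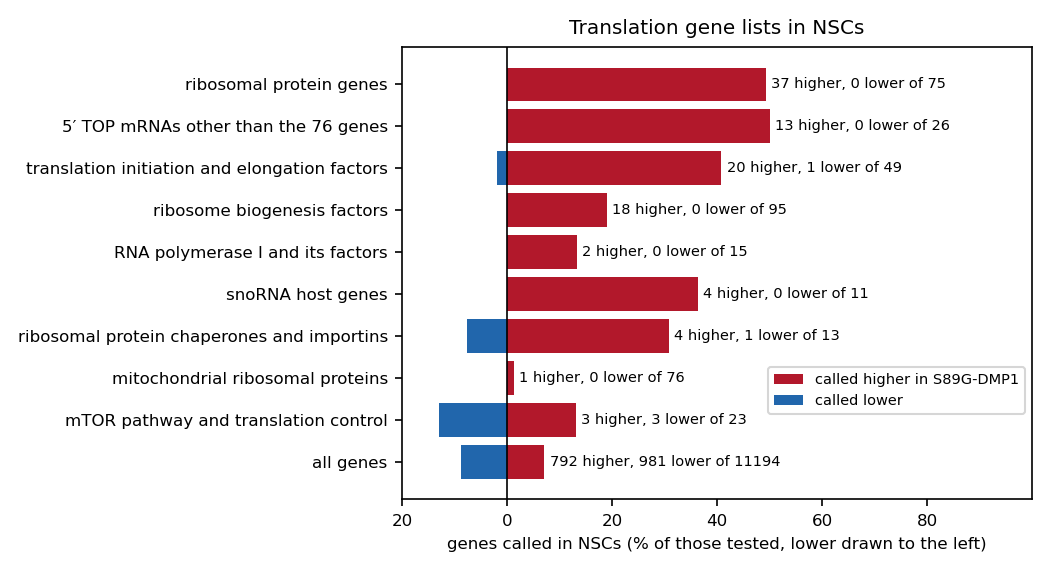
Share of tested genes called by edgeR at an adjusted p of 0.05 in NSCs (x axis, %), higher in S89G-DMP1 to the right in red and lower to the left in blue, for the ribosomal protein genes, 8 other lists and all genes. The ribosomal protein genes and the other TOP messengers stand furthest right, at 37 of 75 and 13 of 26, against 792 of 11194 genes overall.

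The astrocyte comparison asked the same of the libraries labelled as cultured cortical astrocytes, with 1 library per genotype and therefore no replicate check and no test. As given above, the library labelled WT held few reads on astrocyte markers and many on fibroblast and mural markers. The ratios therefore compare the libraries as labelled. For each gene that reached 10 counts in the WT or the S89G-DMP1 library, the log2 ratio of its CPM was taken on the TMM scale after a prior count of 2 was added. The intervals of these ratios are exact 95% (Clopper-Pearson) intervals and cover counting error only. Of the 75 members with enough counts, 0 were at least 2-fold higher in S89G-DMP1, against 17.3% of all 15680 genes, and 1 was at least 2-fold lower, against 12.8% of all genes. The family was tight, with 74 of 75 genes within 0.5 of the family's median on the log2 scale, while 47.9% of all genes lay within 0.5 of theirs. Ratios of genes with few counts scatter more, and the members had a median of 268 FPKM against 10.6 over all genes counted. The part of read depth in this was not tested. The median log2 ratio was -0.12, with 18 genes above 0, but by library size alone it was 0.17, with 61 genes above 0. That scale moved the median of all genes by 0.29, from 0.01 to 0.30, and relative to it the family's median was -0.13 on either scale, with 57 of 75 genes below the median of all genes. As a share of counted reads the family took 1.63% in WT and 1.78% in S89G-DMP1.

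The member that was at least 2-fold lower was Rpl12, a protein at the base of the stalk. It had 4180 counts in WT and 195 in S89G-DMP1, or 258 and 12.9 FPKM, a 24.1-fold lower level (log2 -4.59, interval -4.82 to -4.40). In NSCs the same gene had 86, 96 and 103 counts in WT and 106, 109 and 88 in S89G-DMP1 and was not called (log2 0.14 ± 0.13 SE, adjusted p = 0.52, edgeR). Rpl12 lies on chromosome 2 (GRCm38, 32961559 to 32965345, + strand). Its transcribed processed pseudogene Gm10275, identical over 634 bases, had 52 counts in the WT astrocyte library and 0 in the S89G-DMP1 library. Its other copies together held 23 and 14 counts in the 2 astrocyte libraries. The deviation is that of 1 library against 1 library.

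After Rpl12, the lowest ratios were those of Rplp1 (5975 and 4592 counts, log2 -0.56), Rps20 of the 40S head (2155 and 1716 counts, log2 -0.51), Rpl10 (4756 and 3884 counts, log2 -0.48) and Rps12 of the 40S beak (3725 and 3067 counts, log2 -0.47). These 4 stayed below 0 by library size alone, at -0.27, -0.22, -0.19 and -0.17. The highest were Rpl18 (2000 and 2542 counts, log2 0.16), Rpl10a (log2 0.14), Rpl34 (log2 0.14), Rpl7 (log2 0.14) and Rpl27a (log2 0.14), whose counting intervals all lay above 0. Rpl24 had 2 counts in WT and 3 in S89G-DMP1 and was left out. By FPKM, Rplp0, Rps26, Rplp1, Rpl41 and Rpl13a were the most abundant, with Rplp0 at 919 in WT and 1009 in S89G-DMP1, and Rpl24, Rpl35, Rpl23a, Rpl39 and Rps20 the least. Rpl35 had 131 and 140 counts here, or 15.7 and 18.1 FPKM, although it was at 625 to 828 TPM in NSCs, and the 2 tables were made with different tools, so such levels are not compared further.

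The other lists gave similar small medians in astrocytes. The other TOP messengers had a median log2 ratio of -0.16, initiation and elongation factors -0.24, biogenesis factors -0.25, with 7 of 95 at least 2-fold lower, below the 12.8% of all genes, and mitochondrial ribosomal proteins -0.09. Rps4l was lower in the S89G-DMP1 astrocyte library too, at 240 counts in WT and 99 in S89G-DMP1 (log2 -1.44), and Eef1a2 was at 87 and 46 counts (log2 -1.07). Mycn had 1 count in WT and 81 in S89G-DMP1.

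Set side by side, the NSC and astrocyte values of the members showed no common order. Over the 74 genes with both values, Pearson's r between the NSC log2 fold change and the astrocyte log2 ratio was -0.0092 and Spearman's rho -0.20, and r was -0.22 without Rpl12, as a description across genes that share libraries. Rpl4 and Rpl41, with NSC values of 0.31 and 0.32, had astrocyte log2 ratios of -0.29 and 0.08, and Rpl31 had -0.04. Rps14, lowest among the 40S genes in NSCs, had 0.13.

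**Figure D5:**
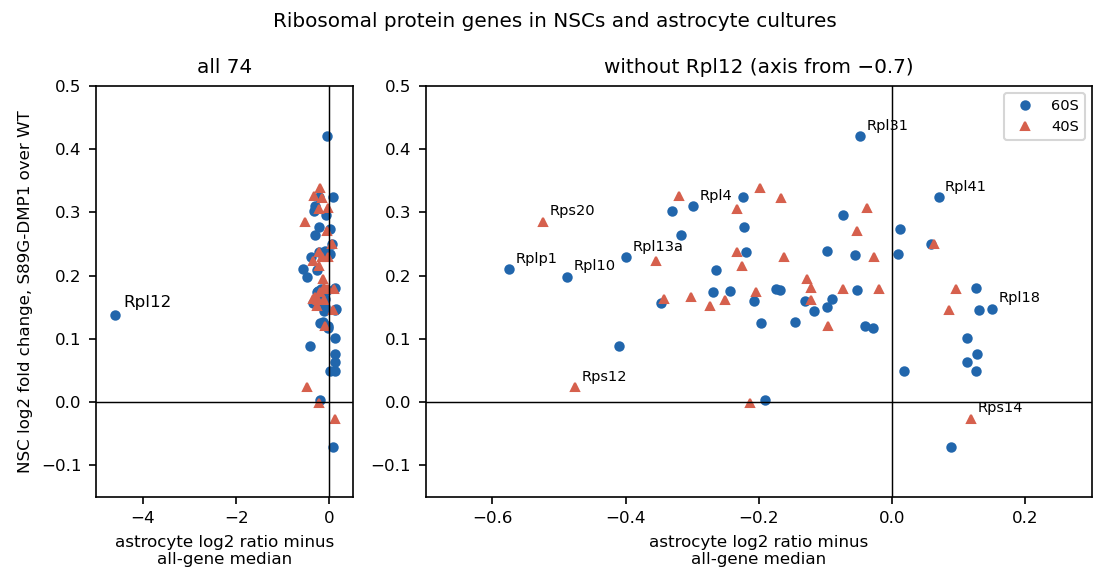
NSC log2 fold change (y axis) against the astrocyte log2 ratio minus the median of all genes (x axis) for the 74 ribosomal protein genes with both values, 60S genes as blue circles and 40S genes as red triangles, with all genes on the left and an enlarged view without Rpl12 on the right. Most points lie above 0 on the y axis and left of 0 on the x axis, and Rpl12 stands alone at a log2 ratio of about -4.6 in astrocytes.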

How the data were processed

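The authors filtered adapter, undetermined and low-quality reads. For the astrocytes they aligned with TopHat2 (Bowtie2) and deposited a table of read counts and one of FPKM values, with the counting program and the genome build not given in the sources used here. For the NSCs the submitters' processing notes name HISAT2, StringTie, featureCounts and GRCm38, and the authors deposited counts per gene and TPM values, both without pooling libraries. No column was left without a sample. Symbols, coordinates and gene types were taken from GENCODE vM21 (GRCm38), which held 47310 of the 47729 NSC and 40052 of the 40562 astrocyte identifiers.

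The members and the gene lists were chosen with earlier results of these data known, so no count over them is independent evidence. After filterByExpr and TMM scaling, NSC counts were tested with the quasi-likelihood test of edgeR 4.0.16 in R 4.3.3 with genotype as the only term, adjusted by Benjamini-Hochberg over all genes at 0.05. DESeq2 1.42.0 and limma 3.58.1 served as alternatives, and the edgeR procedure was tested on simulated counts. The astrocytes, with 1 library per genotype, were given as ratios with no test. Intervals there cover counting error only, and reads carry no molecular identifiers. Copies were searched with blastn 2.17.0. No list was tested as a set, and lists are given by counts and medians.

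Genes were named by a rule: in NSCs every member called lower, the 10 called higher with the largest fold change, the 5 with the smallest p and the 5 with the lowest fold change; in astrocytes the 5 highest, the 5 lowest and those past 2-fold; 21 members by role; the genes outside the symbol rule and the paralogs; of other lists the 3 with the smallest NSC p; members below a filter; and the 5 highest and lowest per length. Copies such as Gm10275 and a few marker and sequence examples were chosen after their values were seen. A few genes that meet this rule are not reported here.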

Additional observations from a re-analysis of the deposited data

Results flagged for a closer look

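For 4 of the named genes every S89G-DMP1 NSC library lay above every WT NSC library while the S89G-DMP1 astrocyte library lay below the WT astrocyte library, both with TMM factors and by library size alone. These are Rps20 (NSC log2 fold change 0.29, astrocyte log2 ratio -0.51), Rpl13a (0.23 and -0.39), Rpl14 (0.30 and -0.32) and Rps27a (0.33 and -0.31). By library size alone the astrocyte ratios were -0.22, -0.10, -0.03 and -0.02. In the deposited TPM values the NSC groups of Rps20 overlapped, and those of Rpl13a, Rpl14 and Rps27a did not. The difference between the cell types was not tested, since each astrocyte genotype has 1 library and the tables were made with different tools. The library labelled WT astrocyte also held few reads on astrocyte markers.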

How the results depend on the processing

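The number of NSC members called higher was 37, and 36 to 38 with RLE or upper-quartile factors, TMM without the members, no filter, a minimum of 10 counts in every sample, and pseudogene rows or near-identical copies added (the last chosen after the data were seen). It was 35 by library size alone, 31 with a length offset, 19 with DESeq2, and 0 with limma on log2(TPM + 1) and 0 on log2(TPM + 0.1). With 1 library left out it ranged from 19 (without S89G-DMP1 replicate 3) to 40 (without S89G-DMP1 replicate 1), with 20 without WT replicate 1. No member was called lower under any of these. The same-number pairs of libraries correlated at 0.07, 0.01 and -0.01 over 6794 genes, so the numbers were not taken to pair the samples, and only WT replicate 1 correlated best with its own number. With the number as a replicate block 38 members were called, and the block changed 0 of 44 calls of named genes.

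In the astrocytes the median log2 ratio was -0.12 with TMM, 0.17 by library size alone, 0.17 on log2(FPKM + 1) and 0.17 on log2(FPKM + 0.1), which follows from the shift of all genes. Relative to the median of all genes it was -0.13, and -0.07 on log2(FPKM + 1), -0.08 with 10 counts required in both libraries and -0.09 with 50 counts in either. The share difference, 0.15 percentage points, was 0.10 without the 10 most abundant genes. A 1.5-fold threshold left 0 members higher and 1 lower.

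Members near 0 in NSCs changed sign. Rps12 was at -0.0052 with a length offset. Rpl23a was at 0.16 with limma on log2(TPM + 1) and at 0.16 on log2(TPM + 0.1). Rpl19 was at -0.00037 with the replicate block, -0.033 with limma on log2(TPM + 1), -0.033 on log2(TPM + 0.1), -0.041 with a length offset, -0.0097 with pseudogene rows and -0.0095 with copies added. Rps29 was at 5.83e-05 with RLE factors, 0.00052 with TMM without the members, 0.0048 without a filter, 0.0029 with the replicate block, 0.0023 with DESeq2, 0.024 with limma on log2(TPM + 1), 0.024 on log2(TPM + 0.1) and 0.014 with copies added. With 1 library left out the log2 fold change ranged from -0.034 to 0.10 for Rpl11, -0.014 to 0.33 for Rpl5, -0.031 to 0.13 for Rpl27a, -0.0043 to 0.17 for Rplp2, -0.49 to 0.27 for Rps12, -0.22 to 0.053 for Rpl23a, -0.15 to 0.11 for Rpl19, -0.11 to 0.087 for Rps29, -0.12 to 0.029 for Rps14 and -0.044 to 0.18 for Rpl36a.

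The cause of these changes was not tested. Counting error limits NSC genes with few counts, such as Rpl24, Rps27, Rps12 and Rpl5, and the astrocyte libraries give no error beyond counting.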
